A study of Mus musculus with 36 samples.

Results

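Distal H2A.Z peaks in low-mappability sequence are peaks that overlap regions annotated, by a source not stated, as hard to place short reads in uniquely. They were taken from the authors' deposited table of consensus H2A.Z peaks in mouse hippocampus. A peak was included when it lay more than 1000 bp from the start of the nearest gene and the table recorded an overlap with an annotated region of low mappability. The rule found 312 of 20213 peaks, or 1.54%, and it used no measured level. The compared groups were young (2.5 months) and old (15.5 months) C57BL/6J mice, either naive or fear conditioned. Conditioned mice received 3 foot shocks of 0.5 mA and 2 s in a session of 5 min, and brains were frozen 30 min after training. Each of the 4 groups had 3 H2A.Z chromatin immunoprecipitation libraries and 3 other libraries of RNA, all from hippocampus. Every H2A.Z level, fold, FDR and peak call below is a value of the authors' deposited table, which gives 1 level per group and no value per library. The labels do not say whether the libraries of a group came from separate animals, so p-values measure the spread between these libraries.

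H2A.Z is a variant of histone H2A that cells place at promoters and enhancers and, in many organisms, in heterochromatin near centromeres. Tandem satellite arrays, ribosomal DNA, tRNA and small nuclear RNA gene clusters and recently duplicated genes are written many times in the mouse genome with few differences. A short read from such sequence aligns equally well to several places, and an aligner must discard it, place it at random or report it more than once.

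How similar the copies can be is shown by the promoters that members hold. RefSeq promoter windows (GRCm38.p6; 250 bases before to 50 after a gene start) lay wholly within members in 23 cases, in 21 peaks. The first pair below comes from a family of interferon-like genes on chromosome 4 (Gm13279, chr4:88796987-88797236, plus strand; Gm13289, chr4:88776512-88776761, plus strand). The upstream 250 bases of the pair are 99.2% identical, and capitals mark the 2 bases at which Gm13289 differs.

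Gm13279: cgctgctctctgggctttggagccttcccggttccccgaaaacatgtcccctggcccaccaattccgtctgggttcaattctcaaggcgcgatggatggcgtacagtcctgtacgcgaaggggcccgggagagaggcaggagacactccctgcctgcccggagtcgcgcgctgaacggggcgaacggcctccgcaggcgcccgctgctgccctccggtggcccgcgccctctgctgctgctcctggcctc

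Gm13289: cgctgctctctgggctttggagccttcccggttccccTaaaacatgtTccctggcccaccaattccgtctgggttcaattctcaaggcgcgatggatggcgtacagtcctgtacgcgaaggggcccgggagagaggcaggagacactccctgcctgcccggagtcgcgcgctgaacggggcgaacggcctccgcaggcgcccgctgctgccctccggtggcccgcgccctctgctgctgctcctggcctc

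The second pair lies on chromosome 17, nearest to Tcte3 in the authors' annotation (Gm3255, chr17:14993178-14993427, minus strand; Gm52298, chr17:15024546-15024795, minus strand). Their upstream 250 bases have 0 differences, so the sequence is printed once and in lower case throughout.

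Gm3255: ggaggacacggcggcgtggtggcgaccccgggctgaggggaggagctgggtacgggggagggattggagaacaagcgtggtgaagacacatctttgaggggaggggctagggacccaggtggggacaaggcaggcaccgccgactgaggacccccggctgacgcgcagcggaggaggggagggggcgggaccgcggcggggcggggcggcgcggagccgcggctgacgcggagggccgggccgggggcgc

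All 4 peaks holding these windows were listed at the lowest level of the table in all 4 groups. By contrast, 3 members with high levels held promoters with no 50-base run found in another window: B930059L03Rik (chr12:110591124-110591373, plus strand), the small nucleolar RNA host gene Snhg8 (chr3:123508337-123508586, minus strand) and Gm40371 (chr6:47651321-47651570, minus strand). Capitals mark CG dinucleotides, the site of DNA methylation in mammals, of which these sequences hold 16, 27 and 21. Their CG number does not set them apart: the sequences above hold 23 (Gm13279), 22 (Gm13289), 28 (Gm3255) and 28 (Gm52298).

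B930059L03Rik: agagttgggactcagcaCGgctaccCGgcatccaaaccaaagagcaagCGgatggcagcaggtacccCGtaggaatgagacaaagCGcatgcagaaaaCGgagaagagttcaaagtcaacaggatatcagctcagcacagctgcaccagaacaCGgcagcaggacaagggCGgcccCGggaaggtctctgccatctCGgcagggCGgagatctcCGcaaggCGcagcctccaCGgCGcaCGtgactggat

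Snhg8: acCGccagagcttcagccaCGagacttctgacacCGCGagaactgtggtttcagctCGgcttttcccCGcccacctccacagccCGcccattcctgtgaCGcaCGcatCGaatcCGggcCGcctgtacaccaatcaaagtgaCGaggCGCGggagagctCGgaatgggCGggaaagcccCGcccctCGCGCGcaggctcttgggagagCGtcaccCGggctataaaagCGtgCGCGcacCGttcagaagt

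Gm40371: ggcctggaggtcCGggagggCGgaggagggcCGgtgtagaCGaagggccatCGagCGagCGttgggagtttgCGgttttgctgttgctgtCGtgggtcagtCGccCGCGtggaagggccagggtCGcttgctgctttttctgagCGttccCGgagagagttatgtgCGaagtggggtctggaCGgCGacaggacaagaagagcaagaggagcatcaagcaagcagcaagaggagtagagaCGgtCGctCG

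Of the 23 windows in members, 9 (39.1%) shared a run of 50 bases with another RefSeq promoter window. The share was 10.5% of 553 windows in other distal peaks and 7.90% of all 32817 windows. In low-mappability peaks within 1 kb of a gene start it was 5.08% of 315 windows, below the share of all windows. Of the 9 in members, 5 (21.7% of the 23) were made of such runs from end to end, against 2.22% of those near a gene start and 1.76% of all. The 6 peaks whose windows were at least 75% copied were the 3 of the Gm13279 family, the Gm3255 and Gm52298 peaks and 1 over the histone genes H2ac24 and H4bc24 on chromosome 13, and 6 of 6 were at the lowest level in all 4 groups. None of the 13 peaks without a shared run was at the lowest level in any group, and their mean levels ran from 0.66 to 7.88. Copies were sought among promoter windows only, so a window without a shared run may still have copies elsewhere in the genome. H2ac18, with 73.0% of its window found in H2ac19, was held by a peak with a mean level of 5.20. Among all other peaks of the table, 12 of 51 (23.5%) with windows at least 75% copied and 4 of 6981 (0.0573%) without a shared run were at the lowest level in all 4 groups. The windows of members held a median of 28 CG dinucleotides, close to the 25 of windows in low-mappability peaks within 1 kb of a gene start and the 23 of those in other distal peaks, and against 7 for all RefSeq windows.

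The members covered 201 annotated low-mappability regions, and 210 of the 312 peaks lay wholly inside one. Their median distance to the nearest gene start was 69038 bp, against 24366 bp for the 7697 other distal peaks, and 37.8% lay beyond 100 kb, against 21.6%. By the authors' annotation 201 were intergenic. Chromosome 6 held 49 members and chromosome 9 held 42. When members within 50 kb of each other were joined, they formed 193 sites, of which 164 held a single peak. The 16 sites of 3 or more peaks held 122 members (39.1%). RefSeq genes overlapped 163 members, among them protein-coding genes in 89, long non-coding RNA genes in 45, pseudogenes of either kind in 31, small nuclear RNA genes in 12 and tRNA genes in 9.

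Levels are given as the authors' log2 mean level of a group (the concentration that DiffBind reports), which is not scaled to peak length. Levels are compared between conditions within an age. In young mice the difference of levels between conditions equals the deposited fold. In old mice, and between ages, the 2 are offset by a constant. Peaks at the lowest level in both old groups (-0.15 naive, -0.11 conditioned) have a deposited fold of 0.26. A fall in level in old mice is thus larger than the deposited fold, as at Zfp771 (9.10 to 7.69, fold -1.19). The median level of members was 2.58 (young naive), 2.44 (young conditioned), 2.73 (old naive) and 2.47 (old conditioned). Other distal peaks had medians of 4.81, 4.22, 5.24 and 4.40, and all peaks 6.25, 5.46, 6.90 and 5.65. Members were thus lower than other distal peaks in each group by the median, and they spread widely: the upper quartile in young naive mice was 5.53 and the lower quartile -0.03.

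Each level column has a lowest value that many peaks share exactly, -0.67, -0.38, -0.15 and -0.11 in the order above. Of the members, 72, 73, 67 and 70 were at it, or 21.5% to 23.4%, against 3.38% to 4.82% of other distal peaks and 1.79% to 2.39% of all peaks. In all 4 groups at once, 35 members (11.2%), 156 other distal peaks (2.03%) and 219 of all peaks (1.08%) were at the lowest value. A lowest level did not mean that no peak had been called: of the members at the lowest level, 17, 28, 17 and 27 in the same order were called in all 3 libraries of that group. The clearest case was the tandem Rn4.5s locus next to Ezh2 on chromosome 6 (chr6:47650719-47686584), whose repeat unit encodes the rodent 4.5S RNA. There, 5 of 9 members were at the lowest level in all 4 groups, and 4 of these 5 were called in all 12 libraries. Members at the lowest level in all 4 groups lay in low-mappability regions with a median length of 35700 bp, against 1900 bp for the 200 members that were above the lowest level in every group.

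**Figure D1:**
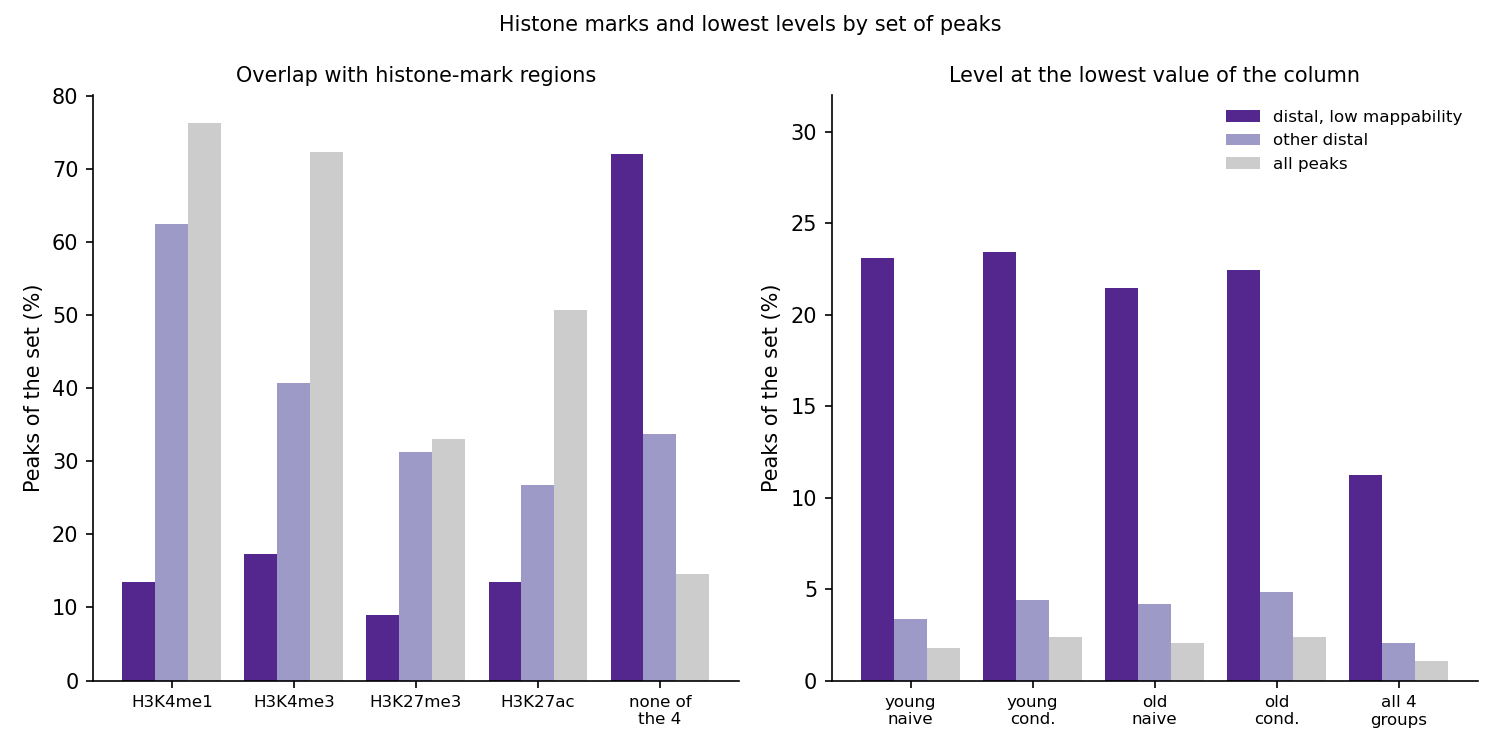
Left, percentage of peaks overlapping regions of 4 histone marks, or none of them, as annotated by the authors; right, percentage of peaks at the lowest level of each group's column and in all 4 groups. Members (312, dark) overlapped no mark in 72.1% of cases, against 33.8% of 7697 other distal peaks, and 11.2% were at the lowest level in all 4 groups, against 1.08% of all peaks.

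Histone marks divide the members. H3K4me1, the mark of enhancers, overlapped 42 members (13.5%), against 62.5% of other distal peaks, and H3K27ac, a mark of active enhancers and promoters, overlapped 42 (13.5%), against 26.7%. H3K4me3, the promoter mark, overlapped 54 (17.3%, against 40.8%), and H3K27me3, the Polycomb mark, 28 (8.97%, against 31.3%). None of the 4 marks overlapped 225 members (72.1%), against 33.8% of other distal peaks. The 87 members with a mark had median levels of 6.11, 5.41, 6.72 and 5.81 in the same order of groups. The 225 without a mark had 1.89, 1.45, 2.04 and 1.73. How much of the mark annotation itself is limited by mappability was not tested.

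Training in young mice (conditioned against naive) tested whether H2A.Z changed at these peaks after fear conditioning. At the authors' FDR under 0.05, 30 members (9.62%) were called, against 13.3% of all 20213 peaks and 11.4% of other distal peaks. Of the 30, 25 were lower in conditioned mice (8.01% of members, background 13.2%) and 5 were higher (1.60% of members, background 0.109%). The whole table held 22 peaks called higher and 2660 called lower, so members made up 5 of the 22. In old mice 13 members (4.17%) were called, against 10.7% of all peaks and 2.66% of other distal peaks. Of these, 6 were lower (1.92%, background 10.6%) and 7 were higher (2.24%, background 0.0396%), out of 8 peaks called higher in the table. Without the 3 peaks nearest to Lrrc4c, 2 members were called higher in young and 4 in old mice. The 2 ages shared 7 called members, 23.3% of those called in young and 53.8% of those called in old mice, each in the same direction at both ages. The same overlap over all peaks was not computed. Among the 7 were the 3 neighbouring Lrrc4c peaks and those at Chl1, Rpusd4 and Lars2. Each of these was at the lowest level in both naive or both conditioned groups.

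All 5 members called higher in young mice and all 7 in old mice were at the lowest level in naive mice, and 7 of the 25 and 3 of the 6 called lower were at the lowest level in conditioned mice. The deposited fold of such a peak is set by that lowest value and is no measure of size, so levels are given for them. The median fold of members (log2, conditioned minus naive) was 0.07 in young mice, beside -0.39 for other distal peaks and -0.57 for all peaks, and -0.16 in old mice, beside -0.61 and -0.93. Peaks at the lowest level in both groups receive a constant fold of 0.29 in young and 0.26 in old mice, which enters these medians. Among the 212 members above the lowest level in both young groups the median fold was -0.24 (all such peaks -0.57), and among 218 in old mice it was -0.45 (all such peaks -0.94). Without members at the lowest level of either group, 18 calls were left in young mice and 3 in old mice, all of them lower.

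**Figure D2:**
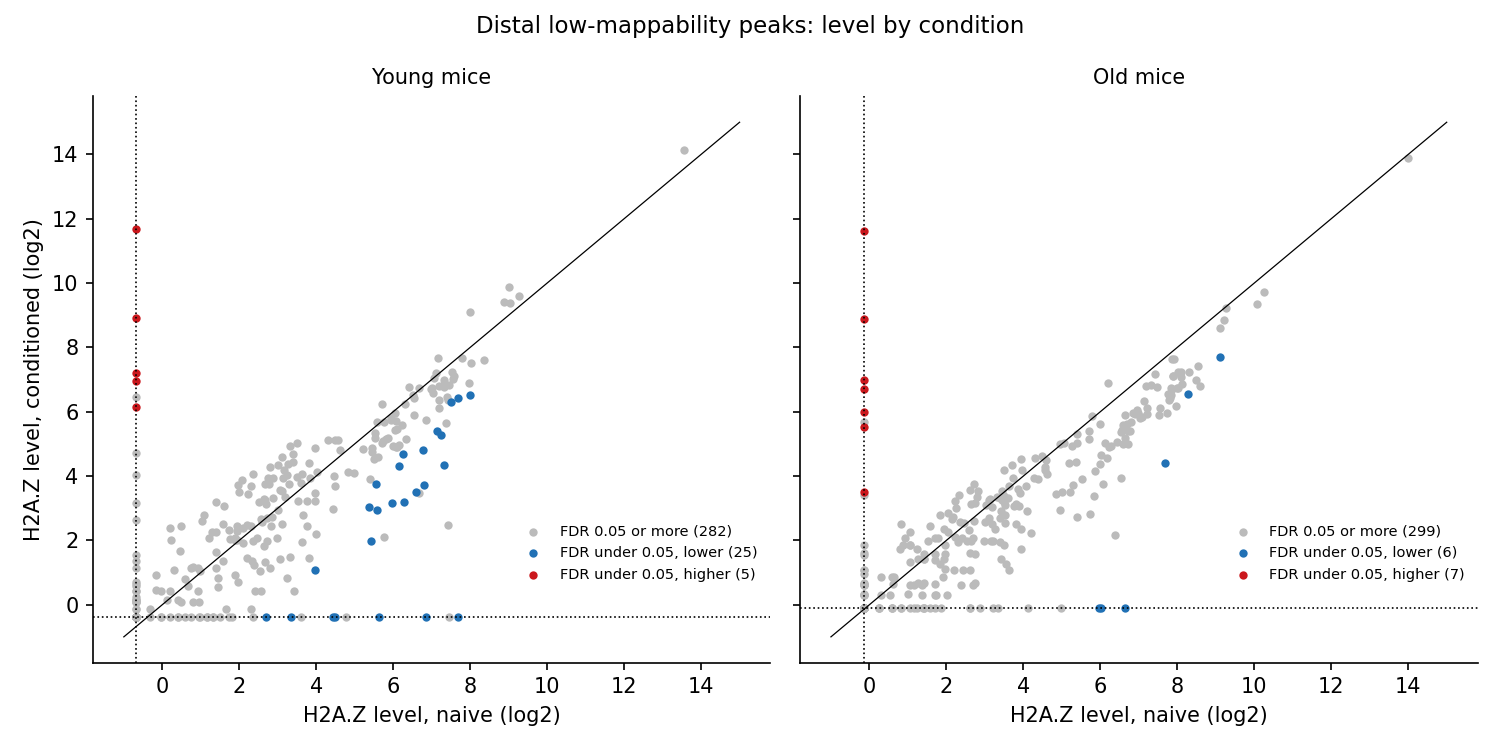
H2A.Z level (log2) of each of the 312 members in naive (horizontal axis) and conditioned mice (vertical axis), by age; dotted lines mark the lowest level of each column, the solid line equal levels, and colours the authors' FDR. The members called higher (5 in young, 7 in old mice) all lie on the dotted line of the naive group, and most of those called lower in young mice lie below the solid line at naive levels above 4.

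The 3 highest folds for training among members, at both ages, belonged to 3 peaks within 5136 bp of chromosome 2 (chr2:98662211-98662979, chr2:98664945-98665223 and chr2:98666233-98667347). The nearest gene is Lrrc4c, which encodes the synaptic adhesion protein netrin-G ligand 1, and the first of the peaks lies 1194939 bp from its start. The first peak was at the lowest level in young naive (-0.67) and old naive (-0.15) mice and at 8.91 in young and 8.88 in old conditioned mice. The second rose from the same lowest levels to 7.20 and 6.99. The third reached 11.7 and 11.6, second among members within the conditioned groups only to the chromosome 17 peak that the authors annotate to Rn45s (below). None of the 3 was called as a peak in any of the 6 naive libraries, and each was called in all 6 conditioned libraries. The authors' FDR was listed as 0, 8.2e-07 and 0 in young and 1.2e-08, 5.3e-08 and 0 in old mice. No level between the lowest value and 6.99 was seen at this site in any group. The table holds no value per library, so it cannot be checked whether reads from such sequence, or any excluded regions, were handled alike in naive and conditioned libraries. For this and the following all-or-none peaks, such a difference and a difference between conditions cannot be told apart.

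The same arrangement occurred at 2 single peaks called at both ages. A peak nearest to Rpusd4, a mitochondrial RNA-modifying enzyme (chr9:35305215-35305612), went from the lowest level to 6.97 in young (FDR 0.0026) and 6.70 in old mice (FDR 0.011). It was called in 0 of 6 naive and 5 of 6 conditioned libraries. A peak in an intron of Chl1, a neural cell adhesion gene (chr6:103649055-103649321), went from the lowest level to 6.15 (FDR 1.6e-12) and 6.00 (FDR 0.00029). It was called in 0 of 6 naive and 6 of 6 conditioned libraries. A peak at chr12:3109816-3110123, near the start of the assembled chromosome 12, had the levels -0.67, 6.45, -0.15 and 5.68 but passed the FDR threshold at neither age.

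The 32 members at the start of the assembled chromosome 9 (chr9:3000036-3038279, nearest gene Alkbh8) form the largest site. In young naive mice 29 of the 32 were at the lowest level and in old naive mice 25, against 11 in young conditioned and 13 in old conditioned mice. The peak at chr9:3000036-3002389 had the highest mean level of the site. It was at -0.67 and -0.15 in young and old naive mice and at 4.04 and 5.51 in young and old conditioned mice, and it was called higher in old mice (FDR 0.044) but not in young mice (FDR 0.14). The peak at chr9:3025420-3026044 was at 3.51 in old conditioned mice (FDR 0.033) and at 0.25 in young conditioned mice (FDR 0.48). The peak at chr9:3023332-3024687 was high in young conditioned mice (4.72) and at the lowest level in old conditioned mice. Whether these responses differ between ages was not tested.

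Peak calling divided the conditions at this site more fully than the levels did. Of its 32 members, 31 were called in none of the 6 naive libraries, and 30 of these were called in 5 or 6 of the 6 conditioned libraries. Among all members, 38 (12.2%) had been called in no naive and at least 5 conditioned libraries, out of 58 such peaks in the table (0.287%). Of the 38, 30 were neighbouring peaks of this 1 site, so they are not separate cases. Every consensus peak was called in at least 1 library. A peak without a naive call is thus listed only because conditioned libraries called it, and its pattern is no independent evidence of a difference. The reverse, at least 5 naive and no conditioned library, held for 2 members (0.641%) and 54 peaks of the table (0.267%). Low-mappability peaks within 1 kb of a gene start numbered 298, and 0 of them showed either pattern. Of the 31 peaks in the table that were at the lowest level in both naive groups and in no conditioned group, 18 were members.

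**Figure D3:**
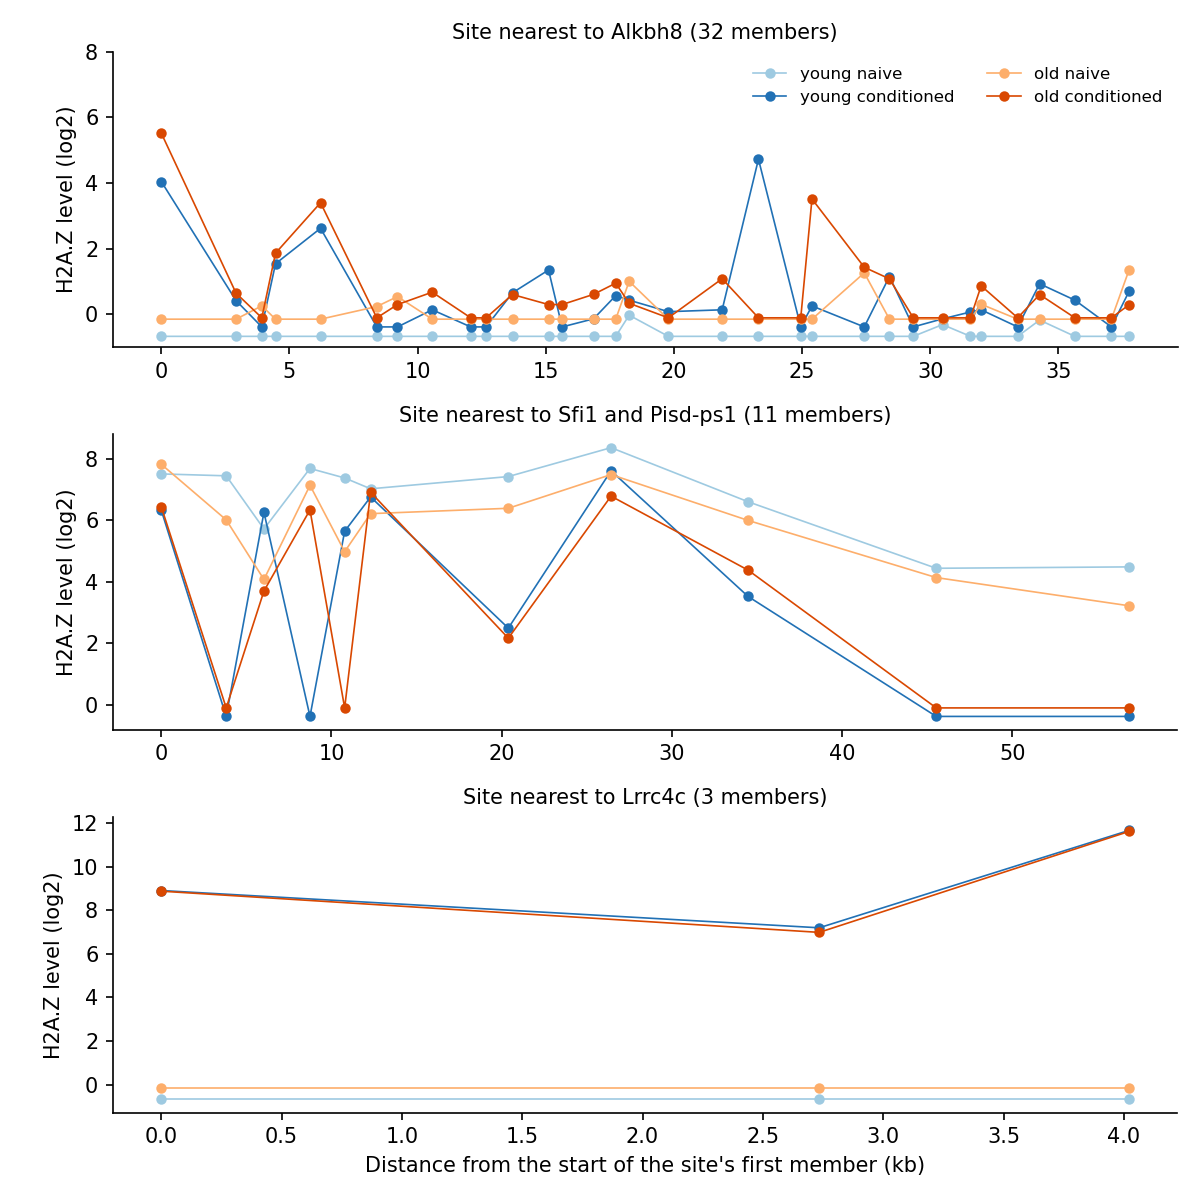
H2A.Z level (log2) of each member by its distance (kb) from the start of the first member, at the sites nearest to Alkbh8, Sfi1 with Pisd-ps1, and Lrrc4c; points are members and colours the 4 groups. Naive levels are at or near the lowest value along the Alkbh8 and Lrrc4c sites, while at the Sfi1 site several conditioned levels drop to the lowest value.

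The opposite arrangement, the lowest level in both conditioned groups and in neither naive group, marked 13 members out of 48 such peaks in the table. It sets no minimum on the naive level, which in young mice ran from -0.31 (near Smarca1) to 7.44 over the 13 members. The site with 3 of the 13 was the duplicated stretch of Sfi1, a centrosomal protein gene, and Pisd-ps1, a transcribed pseudogene of phosphatidylserine decarboxylase (chr11:3123189-3180371, 11 members). The median level there went from 7.37 in naive to 3.51 in conditioned young mice, and from 6.01 to 3.69 in old mice. Called lower in young mice were 5 of the 11, and in old mice 1. A Pisd-ps1 exon peak (chr11:3127003-3128651) was at 7.44 and 6.01 in young and old naive mice and at the lowest level in both conditioned groups. Its FDR was 0.063 in young and 0.0090 in old mice. The next called member, over Pisd-ps1 and an exon of Sfi1 (chr11:3131926-3132425), went from 7.68 to the lowest level in young mice (FDR 5.7e-05) but only from 7.13 to 6.33 in old mice (FDR 0.74). At the highest member of the site (chr11:3149618-3151117) the levels were 8.35, 7.60, 7.48 and 6.78, and it was called at neither age.

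A second pseudogene of the same parent, Pisd-ps2 on chromosome 17, held 2 named members. The peak at chr17:3082113-3083113 was at 6.67 in young naive and 3.46 in young conditioned mice (FDR 0.40) and went from 5.96 to the lowest level in old mice (FDR 0.0012). Its neighbour at chr17:3083735-3085038 kept high levels of 7.96, 6.90, 8.49 and 6.98 and was called at neither age. A peak in the 3′ untranslated region of Lars2, which encodes the mitochondrial leucyl-tRNA synthetase (chr9:123461832-123462146), was at 6.85 in young and 6.65 in old naive mice. It was at the lowest level in both conditioned groups (FDR 0.017 and 0.0022). It was called in 2 of 3 libraries of each naive group and in none of the 6 conditioned libraries. At the other Rn4.5s site, next to Pdia4, the peak at chr6:47747677-47749778 went from 5.64 to the lowest level in young mice (FDR 7.6e-08) and from 6.53 to 3.94 in old mice (FDR 0.081). It was nevertheless called as a peak in all 12 libraries.

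Members that kept a level above the lowest in both conditions and were called at both ages numbered 1: a cluster of tRNA genes 15850 bp upstream of Trim55 (chr3:19627823-19629395). Its level went from 7.32 to 4.33 in young mice (FDR 0.016) and from 7.67 to 4.40 in old mice (FDR 0.026). It was called in 6 of 6 naive and 2 of 6 conditioned libraries. A tRNA peak near Tmpo (chr10:91181374-91182139) went from 6.78 to 4.80 in young mice (FDR 0.00071) and from 7.52 to 5.88 in old mice (FDR 0.28). A tRNA peak 1069 bp from Agbl5 (chr5:30887416-30888148) went from 6.79 to 3.73 in young mice (FDR 1.0e-06) and from 6.72 to 5.41 in old mice (FDR 0.49). All 3 overlapped 3 of the 4 histone marks. Of the 9 members over tRNA genes, 3 were called lower in young and 1 in old mice. Of all peaks, 13.2% and 10.6% were called lower, and 9 members are too few to compare with these shares. On chromosome 3 near BC107364, 3 others of the 9 were at the lowest level in all 4 groups.

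Peaks over 2 non-coding RNA genes and over an exon of a zinc finger gene were also called. The Snhg8 peak printed above went from 7.13 to 5.41 in young mice (FDR 0.0020) and from 7.84 to 6.53 in old mice (FDR 0.48). The peak over Gm38882, near Zfp239 (chr6:117879113-117880114), was called in old mice, from 8.27 to 6.57 (FDR 0.014), and not in young mice, from 7.32 to 6.76 (FDR 0.42). An exon peak of Zfp771, a zinc finger gene (chr7:127253595-127254849), went from 9.10 to 7.69 in old mice (FDR 0.0087) and from 7.79 to 7.67 in young mice (FDR 0.92). A peak 18420 bp upstream of Fos, the immediate early gene (chr12:85455010-85455950), was noticed after its values were seen. It went from 5.97 to 3.15 in young mice (FDR 0.0040) and from 6.28 to 4.95 in old mice (FDR 0.44). A call at 1 age and not at the other does not show a difference between ages, which was not tested.

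The highest level of all members in each group belonged to a peak that the authors annotate to Rn45s, the 45S ribosomal RNA precursor (chr17:39842999-39848831). RefSeq places the pseudogene Rn18s-rs5 and the long non-coding RNA gene AY036118 there instead. The peak was at 13.5, 14.1, 14.0 and 13.9 in the 4 groups. Its FDR for training was 0.99 in young and 1.00 in old mice. By mean level over the 4 groups, the next were short peaks in introns or between genes: in Zc3h7a (chr16:11143913-11144331; 9.0, 9.88, 10.2 and 9.74), between Pex2 and its neighbour (chr3:5860397-5860831; 9.26, 9.59, 10.1 and 9.36) and in Cdk8 (chr5:146260971-146261377; 8.89, 9.40, 9.27 and 9.24). None of these 3 was called (smallest FDR 0.42). Of the 10 members with the highest mean level, only the Zfp771 peak was called, in old mice.

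The 16 sites of 3 or more members differed in level. The site near Cirbp had median levels of 5.94, 5.69, 6.85 and 5.84. The authors annotate its highest member (chr10:80159198-80160351) to the brain cytoplasmic RNA Bc1, but no RefSeq gene overlapped that peak. The histone gene site near Hist2h2aa2 had 2.39, 1.22, 2.18 and 1.58. At 4 sites (near BC107364 with U1 small nuclear RNA and tRNA genes, near the Gm13283 to Gm13288 family, near Ezh2 and near Gpm6a) the median was the lowest value in all 4 groups. In the X-linked site past Mid1, 9 members ran from the lowest value to 7.43. The Eapp site, with 6 members over small nuclear RNA genes and their neighbours, reached at most 1.70 in any group, although each member was called in at least 2 of 3 libraries of every group.

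**Figure D4:**
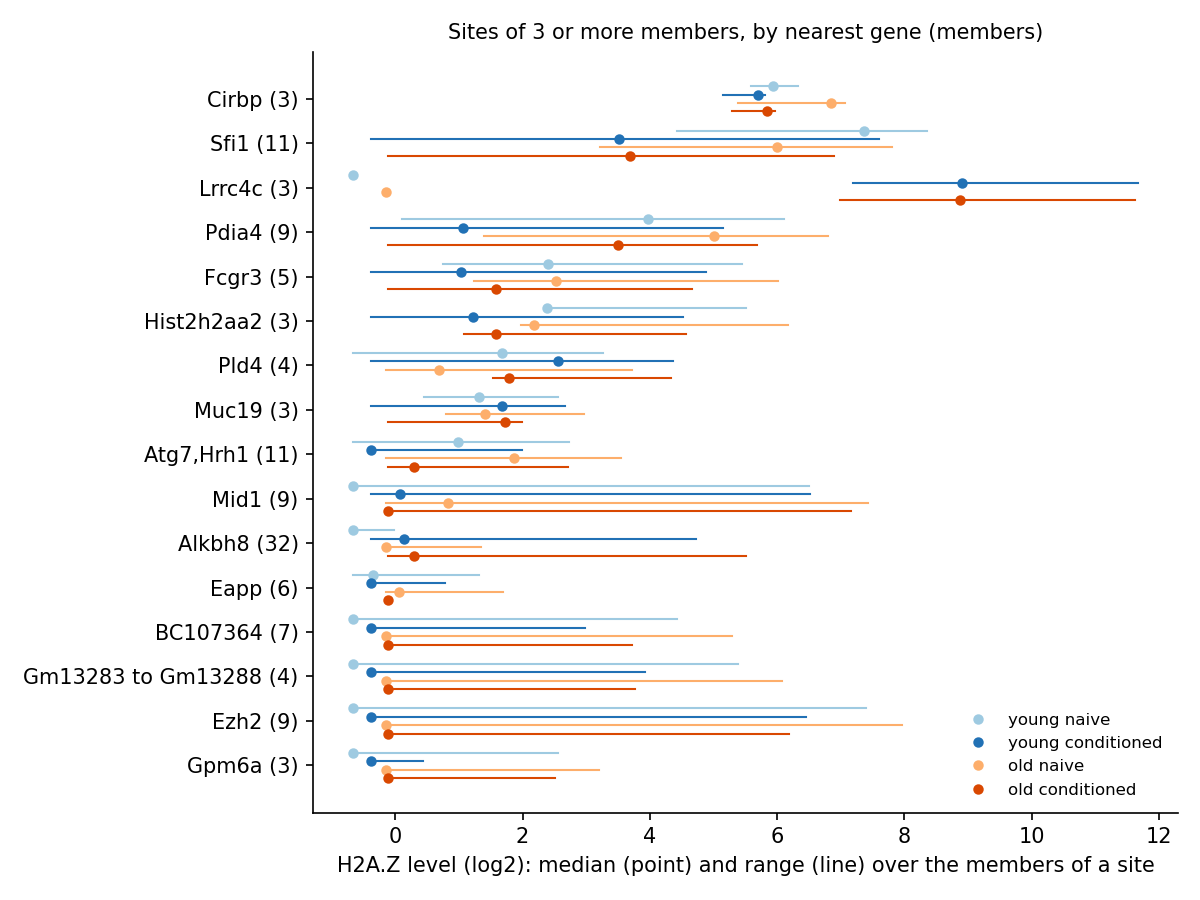
Median (point) and range (line) of the H2A.Z level (log2) over the members of each of the 16 sites with 3 or more members, named by nearest gene with the number of members, in the 4 groups. Only the Lrrc4c site has both conditioned ranges (6.99 to 11.7) clear of both naive ranges.

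Age was compared in naive and in conditioned mice. At the authors' FDR under 0.05, 0 members were called in either, and the background was 0% of 20213 peaks in both. At an unadjusted p under 0.05, 3 members were higher (background 11.8%) and 2 lower (background 0.257%) in old than in young naive mice. In conditioned mice 2 were higher (background 0.5%) and 1 lower (background 0.0544%). The median fold (log2, old minus young) was 0.19 in naive mice, beside 0.17 for other distal peaks and 0.33 for all peaks, and 0.11 in conditioned mice, beside 0.06 and 0.09. With the same unadjusted threshold, the 7697 other distal peaks held 290 that were higher and 50 that were lower in old naive mice, and 50 and 10 in old conditioned mice. Those higher in old naive mice were the peaks at Zfp771 (fold 0.98, p 0.0040), near Mknk2 (0.90, p 0.031) and in Filip1l (0.79, p 0.049), and each had an FDR of 0.25 or more. In conditioned mice the Pisd-ps1 and Sfi1 peak at chr11:3131926-3132425 (p 0.034) and the Alkbh8 site peak at chr9:3025420-3026044 (p 0.042) were the 2 with a higher value in old mice, each with an FDR listed as 1.00.

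RNA was compared for the genes nearest to members, with 9410843 to 13350561 counts per library. Markers of hippocampal neurons and glia were counted in all 12 libraries, and the choroid plexus marker Ttr varied from 24.2 to 2857 CPM (counts scaled to each library by TMM, edgeR's normalization); whether it bears on the values here was not tested. All 194 nearest genes were in the tables and 141 passed the filter on low counts. By edgeR's quasi-likelihood test, 0 of the 141 were called at an adjusted p under 0.05 in each of the 4 comparisons. Of all 14405 tested genes, 0.0278% were called for training in young and 0.0139% for training in old mice. For age, 0.0555% were called among naive mice (0.0347% higher and 0.0208% lower in old) and 0.0347% among conditioned mice. At an unadjusted p under 0.05 they numbered 11 (7.80%), 18 (12.8%), 19 (13.5%) and 23 (16.3%), against 6.63%, 7.16%, 10.3% and 13.4% of all tested genes. DESeq2 called 0, 1, 0 and 1 of them, the synaptic organiser gene Cbln4 for training in old mice and the transcription factor gene Rfx3 for age in conditioned mice. Lrrc4c ranged from 107 to 140 CPM over the 12 libraries. Its log2 difference was 0.09 (SE 0.08, adjusted p 0.848 by edgeR) for training in young and 0.01 (SE 0.08, adjusted p 0.981) for training in old mice.

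Fos, nearest to the member upstream of it, had 5.15 ± 4.36 CPM in young naive and 20.0 ± 4.96 CPM in young conditioned mice (SD, n = 3; log2 2.03, adjusted p 0.10 by edgeR). In old mice it had 4.28 ± 1.44 and 18.3 ± 2.60 CPM (log2 2.08, adjusted p 0.112 by edgeR). The groups of Fos did not overlap at either age. Nor did those of Pex2 and Axin2 for training in young mice (adjusted p 0.77 and 0.79 by edgeR), or of Dync1h1 in old mice (adjusted p 0.70). For age, the groups of Pex2 and Axin2 in naive mice and of Pex2 and Cdk8 in conditioned mice did not overlap. None of these was called. How many of all tested genes had such groups was not counted. Fos passed the threshold in both comparisons when no filter on low counts was applied.

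A list of 46 genes of heterochromatin, centromere and H2A.Z exchange, such as Suv39h1 (H3K9 methyltransferase), Cbx5 (the heterochromatin protein HP1 alpha) and Srcap (the ATPase that places H2A.Z), had 45 measured genes, all of them tested. None passed the threshold by edgeR in any comparison, and 4, 2, 8 and 5 of the 45 (8.89%, 4.44%, 17.8% and 11.1%) had an unadjusted p under 0.05, beside 6.63%, 7.16%, 10.3% and 13.4% of all tested genes. DESeq2 called 0 in each. The list's median log2 differences were 0.01, -0.01, 0.01 and -0.03 in the order of the comparisons above, beside -0.01, 0.00, -0.01 and -0.01 for all tested genes.

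Genes whose span a member overlaps numbered 184 in RefSeq. Of these, 73 were in the count tables and 54 were tested, a set compiled after the files had been seen. Pisd-ps1 alone of the 54 was called, for age in conditioned mice, where 0.0347% of all tested genes were called. In the order of the comparisons above, 9.26%, 14.8%, 14.8% and 25.9% of the 54 had an unadjusted p under 0.05 by edgeR. Of all tested genes, 6.63%, 7.16%, 10.3% and 13.4% had one. In young mice its RNA was at 66.4, 59.4 and 68.7 CPM in naive and at 75.9, 48.8 and 68.3 CPM in conditioned libraries. In old mice it was at 89.0, 88.1 and 112 CPM in naive and at 110, 109 and 133 CPM in conditioned libraries. Each of the 6 old libraries was above each of the 6 young ones, which also held for Pisd-ps2. How many of all tested genes were so divided was not counted. The log2 difference (old minus young) was 0.87 (SE 0.14, adjusted p 0.0251 by edgeR) in conditioned mice and 0.57 (SE 0.14, adjusted p 0.193 by edgeR) in naive mice. In conditioned mice the call was lost, with an adjusted p between 0.0544 and 0.132, when 1 of 6 libraries was left out (old conditioned 61, 63 or 65, young conditioned 75 or 77, young naive 83). None of the 3 H2A.Z peaks that the authors' deposited table annotates to Pisd-ps1 was called for age in either condition. Because 0 of all 20213 peaks were called for age, this says nothing particular about Pisd-ps1.

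Pisd-ps2 had 12.7 ± 1.38 CPM in young and 15.9 ± 2.88 CPM in old naive mice, and 9.90 ± 2.37 CPM in young and 16.2 ± 1.73 CPM in old conditioned mice (SD, n = 3 each). Its log2 age difference was 0.71 in conditioned mice (adjusted p 0.195 by edgeR) and 0.33 in naive mice (adjusted p 0.511). Every old library was above every young one, narrowly: the lowest old value was 13.85 and the highest young value 13.78 CPM. Pisd-ps1 and Pisd-ps2 derive from the same parent gene, and reads shared between near-identical copies may have been assigned to either or to neither. Lars2 RNA varied widely between libraries of 1 group, with 311 to 2913 CPM in young conditioned and 637 to 13615 CPM in old conditioned mice. Its log2 difference was 1.20 (SE 0.94) for training in young and 2.32 (SE 0.97) for training in old mice, with adjusted p of 0.817 and 0.695 by edgeR. No source used here gives the strand setting of the counting, so antisense reads cannot be told apart.

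**Figure D5:**
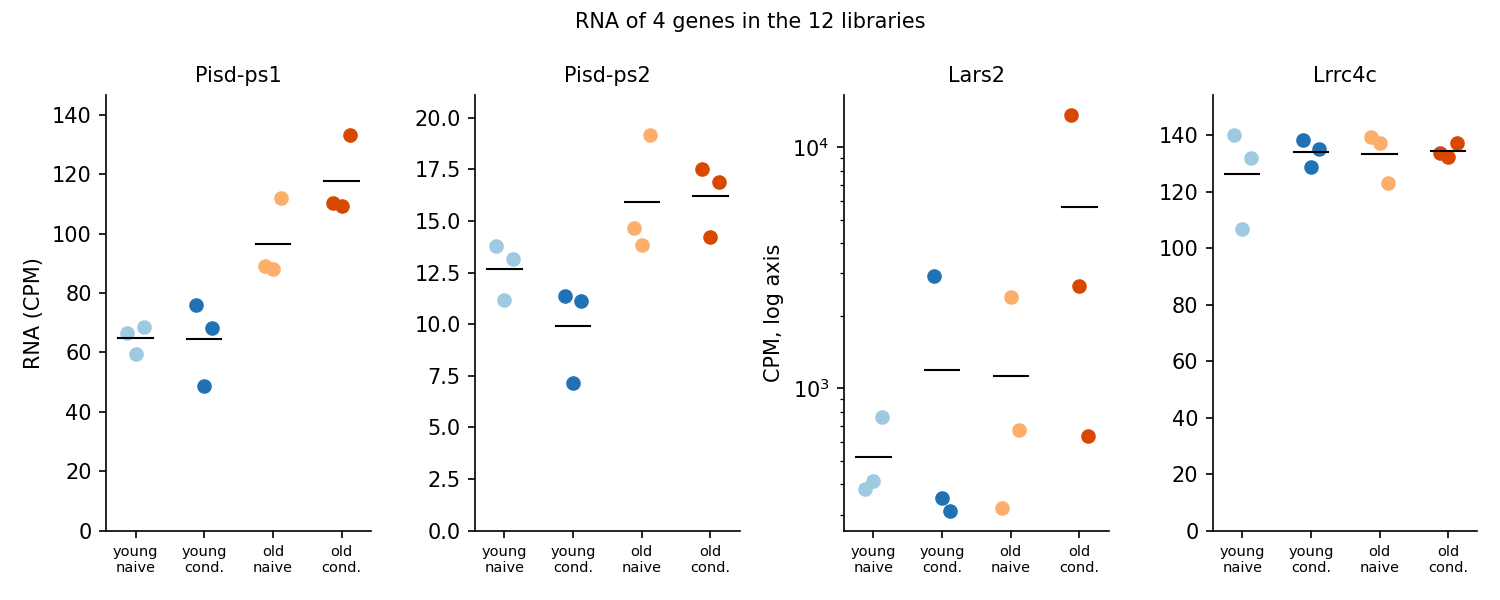
RNA in CPM for Pisd-ps1, Pisd-ps2, Lars2 (log axis) and Lrrc4c in the 12 libraries; points are libraries and bars group means. All 6 old libraries exceed all 6 young ones for Pisd-ps1 and, narrowly, for Pisd-ps2. How many of all tested genes were so divided was not counted. Lars2 spans 311 to 13615 CPM, and Lrrc4c stays between 107 and 140 CPM.

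The members nearest to the distance threshold on its inner side were a peak 1026 bp from the start of BC107364 (chr3:96451018-96451542), at the lowest level in all 4 groups, and the Agbl5 peak at 1069 bp. Just outside it lay a peak 835 bp from the start of Hnrnpul2 (chr19:8819530-8820940), at 7.60, 7.52, 8.35 and 7.50, and a peak 976 bp from Sft2d3 (chr18:31910385-31911469), at 7.72, 7.85, 8.97 and 7.77.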

How the data were processed

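Mouse hippocampal H2A.Z is represented by 1 file of the authors, deposited with mm10 consensus peaks and, for each group, a log2 mean level and the number of its 3 libraries with a called peak. Its p-values and FDR were computed by the authors with DiffBind, per the column names. It holds no value per library, so no test was run on it. The sign of its log2 folds was reversed where needed, so that positive means higher after training or in old mice; T in the column names was read as conditioned by exclusion. In old mice, and between ages, folds differ from level differences by a constant. For RNA, the authors deposited whole-number counts per gene. Per the submitters' processing notes, the tools include Bowtie2 2.2.1, TopHat, HTSeq 0.6.1p2, MACS2 2.0.10 and DiffBind 1.12.2; how reads with several alignments were treated, and the source of the low-mappability regions, are not stated there.

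Counts were tested in R 4.3.3 with edgeR 4.0.16 (TMM, filterByExpr, 1 quasi-likelihood fit of 12 libraries, Benjamini-Hochberg at 0.05), tested on simulated data first; DESeq2 1.42.0 was an alternative. CPM used the TMM-scaled library size of the filtered genes. Gene models matched RefSeq GRCm38.p6 within 1000 bp for 99.6% of 13312 genes. All 194 nearest gene symbols matched. Regions named are the 10 highest mean levels, the 3 highest and lowest folds per comparison among called members, all members nearest to Lrrc4c, those beside the distance threshold and the highest of each site, with others chosen after their values were seen. The rule for RNA covers Lrrc4c, the nearest genes of the 10 highest members, nearest genes called, and up to 5 heterochromatin genes of smallest p per comparison; Fos, Pisd-ps1, Pisd-ps2, Lars2 and the genes called by DESeq2 alone were chosen after their values were seen. Members and lists were chosen with earlier results of these data known. The 12 input libraries were not analysed here.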

Additional observations from a re-analysis of the deposited data

How the results depend on the processing

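The authors' table gives no values per library, so no H2A.Z library could be left out. At an FDR under 0.01, 17 members were called for training in young and 8 in old mice, against 30 and 13 at 0.05. Without members at the lowest level of either group, an alternative chosen after seeing the data, 18 and 3 were called, and the median fold turned to -0.24 for training in young and -0.11 for age in conditioned mice. Centring the folds on the median of all peaks turned the median to 0.77 for training in old and -0.14 for age in naive mice, and left every called member on its side of 0. The other alternatives (a larger minimum distance, peaks wholly inside or containing a low-mappability region, members called in all 3 libraries of a group, and without the Lrrc4c peaks) kept each total of called members within 1.5 times and each median's sign. The split by direction moved more: without the Lrrc4c peaks, members called higher fell from 5 to 2 in young and from 7 to 4 in old mice, and among members called in all 3 libraries of a group those called lower in old mice fell from 6 to 3.

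For the nearest genes, without a filter on low counts 1 gene (Fos) was called for training in young and 2 (Cbln4 and Fos) in old mice. With DESeq2 1 was called for training in old and 1 for age in conditioned mice, and with only the 2 groups compared 1 (Fos) for training in old mice. Leaving out single libraries gave 0 to 1 called nearest genes for training at either age (Fos, without young naive 79 at both ages or 81 in old mice). Among overlapped genes, DESeq2 and the unfiltered fit each called 1 (Pisd-ps1) for age in naive mice, and single omissions gave 0 to 1 for age in conditioned mice. The Lrrc4c log2 difference ran from -0.020 to 0.17 and from -0.040 to 0.049 for training in young and old mice, and from -0.029 to 0.16 and from -0.020 to 0.029 for age in naive and conditioned mice. That of Pisd-ps1 for training in young mice ran from -0.15 to 0.16. No paired analysis was possible because each RNA library has a number of its own, and the numbers shared by input and immunoprecipitated libraries do not pair the groups compared.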

Other observations

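The arrangement seen at the Lrrc4c site was not limited to annotated low-mappability sequence. Of the 13 other peaks at the lowest level in both naive groups and in neither conditioned group, 3 lay side by side on chromosome 14, between Ube2e2 and Gm5458 in the authors' deposited table (chr14:19415721-19416338, chr14:19416863-19418317 and chr14:19418505-19419559). The middle one was at -0.67 and -0.15 in young and old naive mice and at 4.87 and 4.24 in young and old conditioned mice, with an FDR of 0.035 and 0.015. It was called in 0 of 6 naive and 6 of 6 conditioned libraries, and it is the 1 peak called higher in old mice that is not a member. Its neighbours were at 2.90 and 1.79 and at 2.81 and 2.97 in conditioned mice and passed the threshold at neither age. Of the 35 other peaks with the reverse arrangement, a peak at the start of Srp54b (chr12:55154608-55155744), a gene of the signal recognition particle, was at 1.49 and 1.72 in naive mice and at the lowest level in conditioned mice, yet it was called in 11 of 12 libraries.

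The relation between level and peak calling differed by site. At the Pdia4 site, 8 of 9 members were called in at least 11 of 12 libraries, with levels from -0.38 to 6.57, while the Lars2 peak, at 6.85 in young naive mice, was called in 4 of 12.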
